A study of Mus musculus with 2 samples.

Results

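T lymphocytes with transcripts of natural killer (NK) receptors were described in a sort of mouse bone marrow cells that was meant to hold progenitors. A cell was taken where its barcode had at least 1000 genes, at most 10% of its unique molecular identifiers (UMIs) from mitochondrially encoded genes, at least 2 UMIs over Cd3d, Cd3e and Cd3g, and at least 2 UMIs over Trac, Trbc1, Trbc2 and Trdc. These 460 cells, 316 from the knock-out library and 144 from the wild-type library, were part of 7633 barcodes that met the limits on genes and mitochondrial UMIs. Because the cells were selected on measured UMIs of those 7 genes, the levels of these genes are a description of the choice and support nothing else.

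The knock-out library (KO) came from LCR1-/- mice and the wild-type library (WT) from LCR1+/+ mice, all of the C57BL/6 strain and 8 to 12 weeks of age. Marrow of several animals, as many males as females, was pooled for each genotype, and viable cells were sorted that carried CD45 and CD127, the interleukin-7 receptor, and lacked lineage markers. Each genotype had 1 library of 10x Genomics 3' chemistry, so no difference below has a replicate check and no p-value is given. How many animals entered a pool, which antibodies made up the lineage cocktail and where LCR1 lies are not given in the sources used here. Counts do not serve here as a check of the deletion.

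T cells recognise antigen through a receptor of an alpha and a beta chain or of a gamma and a delta chain, which reaches the surface only with the CD3 chains that signal for it. NK cells lack this receptor and instead weigh activating against inhibitory receptors, many of which are lectin-like proteins encoded by the Klr genes. The Klra genes encode the Ly49 receptors, which bind MHC class I molecules, and in the mouse some T cells, among them memory-like CD8 T cells, NKT cells and gamma-delta T cells, also carry Klr receptors and the chemokine CCL5. Mature T cells return to the bone marrow, where many are kept by interleukin-7 and interleukin-15.

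The KO library held 8476 barcodes and the WT library 20293, with median depths of 4078.5 and 936 UMIs, and 4343 KO and 3290 WT barcodes met the limits. The selected cells had a median of 5846 UMIs in KO and 7579 in WT, a median of 1977.5 and 2476 genes, and 2367785 and 1295483 UMIs in all. A single KO cell held 91637 of these UMIs. The libraries shared 75 barcode sequences, and no sequence was shared by selected cells of both. Intervals below are at 95%, exact, and cover counting error only.

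The label of T cells with NK genes was met by most cells and not by all. Cd3d was read at 555 CPM in KO and 472 CPM in WT, and Cd3e at 340.4 and 375 CPM. CPM is the count of a gene scaled to a common total of all UMIs of the given cells in that library. Cells gated as NK cells or group 1 innate lymphoid cells (ILC1) without CD3, from at least 2 UMIs over Ncr1 and Klrb1c, had 6.47 and 5.73 CPM of Cd3d. The rule did not use Klra7 or Ccl5: Klra7 stood at 229 CPM in KO and 213 CPM in WT, and Ccl5 at 8100.0 and 6405 CPM. At least 10 Ccl5 UMIs together with at least 2 UMIs over the 28 listed NK receptor genes were found in 275 of 316 KO cells (87.0%, interval 82.8 to 90.5%) and in 103 of 144 WT cells (71.5%, 63.4 to 78.7%). Neither was met by 21 KO cells (6.65%) and 25 WT cells (17.4%), which carry the T cell receptor genes without the NK genes of the label.

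**Figure D1:**
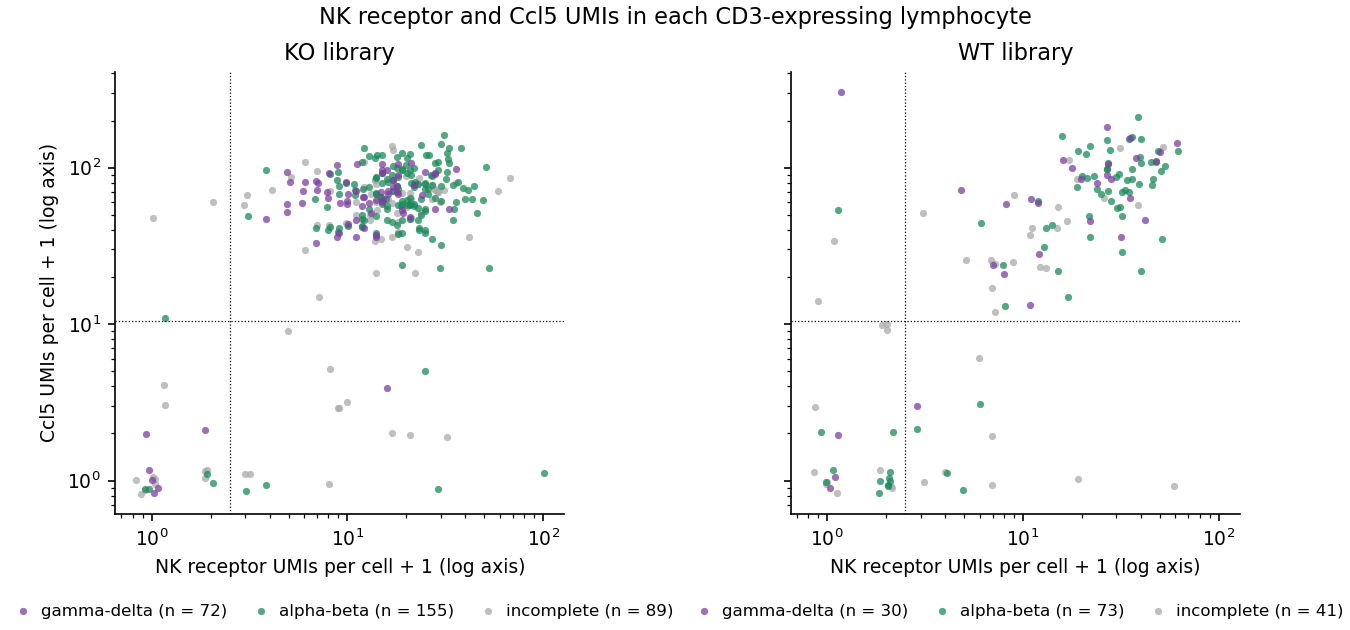
UMIs of the 28 NK receptor genes (horizontal, plus 1, log axis) and of Ccl5 (vertical, plus 1, log axis) in each selected cell of the KO and the WT library; a point is 1 cell, moved by a small random step so that equal counts can be seen, and the colour gives its TCR class. Dotted lines mark 2 NK receptor UMIs and 10 Ccl5 UMIs; 275 KO and 103 WT cells lie above both, and 21 and 25 cells lie below both.

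The cells just inside the threshold carried less of the NK genes than those well inside it. With 4 or more CD3 UMIs there were 281 KO and 124 WT cells, at 9088 and 7203 CPM of Ccl5. The 35 KO and 20 WT cells with 2 or 3 CD3 UMIs had 2009 and 2597 CPM of Ccl5, and 15.1 and 26.7 CPM of Klra7. Just outside, 92 KO and 48 WT cells had enough TCR UMIs and only 1 CD3 UMI, and they had 923 and 564 CPM of Ccl5 and 15.9 and 10.6 CPM of Klra7. A further 11 KO and 19 WT cells had the CD3 UMIs and too few TCR UMIs.

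Transcripts of the Ly49 genes set these cells apart from the NK cells of the same sort, so the stretches around their starts are shown first. The genes lie on the minus strand of chromosome 6 (GRCm38.p6), Klra6 at 130013033 to 130026954, Klra7 at 130218605 to 130233322 and Klra1 at 130363917 to 130386874. Klra8, at 130115226 to 130129898, is set beside them as a neighbour of which KO cells held 1 UMI and WT cells none. Each line gives 250 bases before and 50 bases after the start that RefSeq lists, 5′ to 3′ on the gene's strand, and where 2 starts are listed (Klra7 and Klra8) the outermost was used. Capitals mark CTTTG followed by 2 letters that are each A or T, a motif that proteins of the TCF and LEF family bind, and TGTGGT, letters that Runx proteins bind; both were searched on both strands.
Klra6, chr6:130026905-130027204: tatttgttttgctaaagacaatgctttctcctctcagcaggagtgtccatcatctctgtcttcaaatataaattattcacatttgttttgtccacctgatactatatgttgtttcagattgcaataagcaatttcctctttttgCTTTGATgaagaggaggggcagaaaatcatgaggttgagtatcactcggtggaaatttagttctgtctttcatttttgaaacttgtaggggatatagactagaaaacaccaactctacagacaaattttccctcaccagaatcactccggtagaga
Klra7, chr6:130233273-130233572: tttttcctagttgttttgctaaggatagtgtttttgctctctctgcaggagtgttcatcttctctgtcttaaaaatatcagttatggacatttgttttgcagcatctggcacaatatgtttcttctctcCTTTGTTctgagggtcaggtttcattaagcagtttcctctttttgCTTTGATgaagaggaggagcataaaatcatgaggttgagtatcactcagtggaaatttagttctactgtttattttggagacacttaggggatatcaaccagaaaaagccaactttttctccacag
Klra1, chr6:130386825-130387124: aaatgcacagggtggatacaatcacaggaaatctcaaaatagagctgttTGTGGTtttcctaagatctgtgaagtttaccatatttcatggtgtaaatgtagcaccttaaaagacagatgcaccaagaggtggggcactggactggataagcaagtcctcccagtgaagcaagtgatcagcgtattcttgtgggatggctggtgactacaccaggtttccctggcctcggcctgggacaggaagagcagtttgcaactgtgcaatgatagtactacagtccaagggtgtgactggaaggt
Klra8, chr6:130129849-130130148: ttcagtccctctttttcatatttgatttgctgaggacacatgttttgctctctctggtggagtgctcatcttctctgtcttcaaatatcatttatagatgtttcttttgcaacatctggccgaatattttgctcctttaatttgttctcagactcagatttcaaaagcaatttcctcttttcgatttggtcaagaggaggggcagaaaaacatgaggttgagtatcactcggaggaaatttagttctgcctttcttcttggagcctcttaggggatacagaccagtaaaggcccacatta

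Klra6 and Klra7 had the letters CTTTGAT 106 and 76 bases before the start, and Klra7 also had the spelling CTTTGTT, 121 bases before it. Klra1 had TGTGGT at 201 bases before its start and no TCF letters, and Klra8 had neither in this window. Of 27025 promoters of the same length, 4575 (16.9%) held 1 of the TCF spellings and 4568 (16.9%) held TGTGGT, and of 11 Klra genes with an entry, 3 held TCF letters (Klra6, Klra7 and Klra9) and 1 held the Runx letters. The longest run of equal bases was 30 between the Klra6 and Klra7 stretches, 22 between Klra6 and Klra8, and 8 between Klra1 and any of the others. A match is a description of these letters and says nothing of binding.

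Both kinds of T cell receptor were present. Cells with Trac and Trbc UMIs, called alpha-beta here, numbered 155 of 316 in KO (49.1%, interval 43.4 to 54.7%) and 73 of 144 in WT (50.7%, 42.2 to 59.1%). Cells with Trdc and a Tcrg-C UMI and no Trac UMI, called gamma-delta here, numbered 72 in KO (22.8%, 18.3 to 27.8%) and 30 in WT (20.8%, 14.5 to 28.4%). The remaining 89 KO cells (28.2%) and 41 WT cells (28.5%) carried an incomplete set of constant regions. The intervals of each class overlapped widely between the libraries.

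Trac, the constant region of the alpha chain, was read in 155 KO and 73 WT cells, and Trdc, that of the delta chain, in 104 and 42. Both together were read in 14 KO and 5 WT cells, and neither in 71 and 34. A Trbc UMI was present in 311 KO and 143 WT cells, and also in 68 of 72 KO and 29 of 30 WT cells of the gamma-delta class. The beta constant region was not confined to these lymphocytes: NK cells and ILC1 had 463 CPM of Trbc1 in KO and 309 CPM in WT, and group 2 innate lymphoid cells (ILC2) had 257 and 138 CPM, against 587 and 555 CPM in the selected cells. Trbc2 differed more, at 791 CPM in KO and 908 CPM in WT in the selected cells. In NK cells and ILC1 it stood at 337 and 318 CPM (2.35-fold and 2.86-fold higher in the selected cells). The gamma constant regions were likewise shared, with Tcrg-C4 at 55.7 CPM in KO and 109.6 CPM in WT in the selected cells, and at 152 and 169.7 CPM in NK cells and ILC1. Trac, at 168 CPM in KO and 169 CPM in WT, stood at 2.06 and 4.30 CPM in NK cells and ILC1.

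Variable segments lie far from the 3' end that this chemistry reads, and they were rarely seen. Trgv2 was found in 71 KO cells (22.5%) and 40 WT cells (27.8%), against 0.695% and 0.636% of the other kept barcodes. It was the only gene listed with the prefix Trgv, and gamma variable genes under other symbols were not searched. Of these Trgv2 cells, 41 in KO and 15 in WT were in the gamma-delta class, 21 and 18 in the alpha-beta class and 9 and 7 in the incomplete class. Trav15-1-dv6-1, a variable segment that joins to the delta locus as well as to the alpha locus, was read in 7 KO and 4 WT cells, of which 5 and 4 were gamma-delta. Trdv5 was read in 5 KO and 3 WT cells, and in none of the other kept barcodes of either library. Trdv4, the most frequent delta segment, was not particular to the selected cells. It was read in 14 KO cells (4.43%) and 8 WT cells (5.56%), against 5.54% and 5.24% of the other kept barcodes. Of these Trdv4 cells, 5 in KO and 0 in WT were in the gamma-delta class. Any Trbv segment was read in 50 KO and 19 WT cells, over 17 and 12 different segments, and any Trav segment in 42 and 26 cells, over 24 and 19 segments. The most frequent beta segment in KO, Trbv12-2, accounted for 11 KO and 4 WT cells. No cell had a UMI of Trav11 or Traj18, the segments of the invariant NKT receptor, and no joining segment of the alpha locus was read in any selected cell, so that invariant NKT cells could not be sought in this way.

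Most cells carried transcripts of neither co-receptor. CD8 UMIs (Cd8a or Cd8b1) without Cd4 were found in 32 KO cells (10.1%, 7.03 to 13.99%) and 16 WT cells (11.1%, 6.49 to 17.4%), and 24 and 13 of them were alpha-beta while 0 and 1 were gamma-delta. Cd4 without CD8 was found in 3 KO cells and 0 WT cells, where 0 of 144 allows up to 2.08%. Neither was read in 281 KO cells (88.9%) and 128 WT cells (88.9%). After each cell was thinned to 1500 UMIs, Cd8a was seen in 4.11% of KO and 2.78% of WT cells, against 0% and 0.505% of early B cells, so that the absence of a UMI does not show which cells lack the protein. Foxp3, which defines regulatory T cells, had no UMI, which allows up to 0.949% of KO and 2.08% of WT cells with a UMI. Cd5 and Cd6, surface proteins of conventional T cells, were read in 14 and 8 KO cells and in 13 and 11 WT cells.

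NK receptor genes were read in most cells of both classes. After thinning, at least 2 NK receptor UMIs remained in 243 of 316 KO cells (76.9%, 71.9 to 81.4%) and 89 of 144 WT cells (61.8%, 53.3 to 69.8%). Without thinning the shares were 92.4% and 79.9%. Among the 166 KO and 28 WT cells with fewer than 2 UMIs summed over the markers of 5 other kinds of cell (B cells, plasmacytoid dendritic cells, basophils, neutrophils and ILC2), the thinned shares were 83.1% and 78.6%, a difference of 4.56 percentage points in place of 15.1. The ILC2 markers include Gata3, which is also listed here among the T lineage factors. Early B cells, which should lack these receptors, gave 1.97% in KO and 3.03% in WT after thinning, and 39.2% and 42.9% without it, at median depths of 12523.5 and 13985 UMIs. ILC2 gave 1.83% and 1.64% after thinning, at median depths of 4828.5 and 5721 UMIs. Barcodes that met the gate on Ncr1 and Klrb1c were left out of ILC2, so that gate lowered the ILC2 shares in advance. By class, without thinning, 66 of 72 KO and 26 of 30 WT gamma-delta cells, 150 of 155 KO and 61 of 73 WT alpha-beta cells, and 76 of 89 KO and 28 of 41 WT incomplete cells had at least 2 NK receptor UMIs.

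The Ly49 genes were carried by these cells and hardly by the NK cells of the sort. A Klra UMI remained after thinning in 140 of 316 KO cells (44.3%, 38.7 to 50.0%) and 53 of 144 WT cells (36.8%, 28.9 to 45.2%). In NK cells and ILC1 it remained in 13 of 474 KO cells (2.74%) and in 0 of 142 WT cells, and in early B cells in 0% and 1.01%. Without thinning the shares were 68.7% and 59.0% of the selected cells. Klra7, which encodes Ly49G2, stood at 229 CPM in KO and 213 CPM in WT, read in 167 and 71 cells. Klra1, which encodes Ly49A, stood at 124 and 112 CPM, in 115 and 47 cells. Klra6, which encodes Ly49F, stood at 63.4 and 64.8 CPM, in 79 and 41 cells. These 3 genes were at nearly the same level in both libraries, and each interval of the KO over WT ratio took in 1.

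Other Ly49 genes were low or absent. Klra5 was read at 23.2 CPM in KO and 23.9 CPM in WT. Klra9 (25.3 and 23.2 CPM) and Klra3 (10.6 and 20.8 CPM) are less certain, because 32.3% and 21.2% of their 60-base windows near the transcript end occur in another Klra gene, against 0% for Klra6, Klra7 and Klra5 and 4.29% for Klra1. Klra2, Klra4 and Klra17 had no UMI in either library. At least 2 different Klra genes were read in 140 KO cells (44.3%) and 63 WT cells (43.8%) without thinning, Klra1 together with Klra7 in 85 and 39, and Klra6 together with Klra7 in 64 and 38. In NK cells and ILC1, 8 KO cells and 0 WT cells had 2 different Klra genes.

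**Figure D2:**
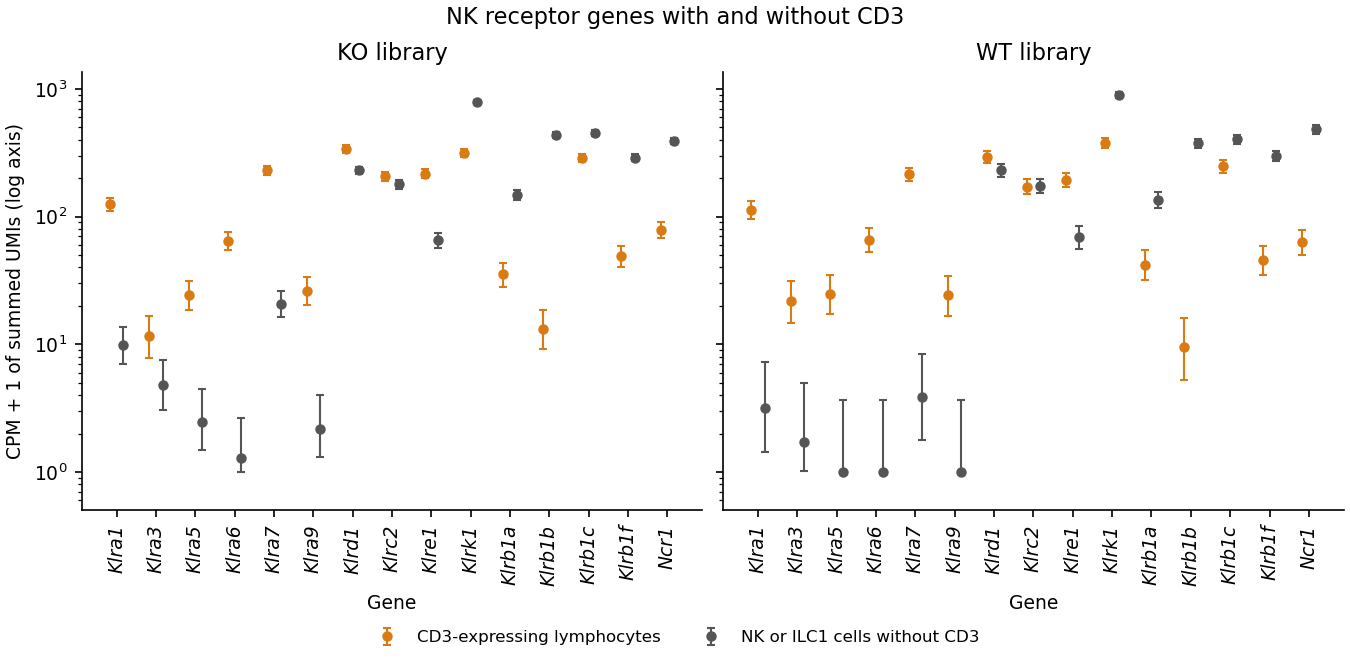
Levels of 15 NK receptor genes in the selected cells (orange) and in NK cells and ILC1 without CD3 (grey), in CPM plus 1 of summed UMIs on a log axis, with the KO library in the left panel and the WT library in the right; bars are exact 95% Poisson intervals. Klra genes are higher in the selected cells in both panels (Klra7 at 229 against 19.7 CPM in KO, and 213 against 2.86 CPM in WT), while Klrb1b is lower (12.2 against 436 CPM, and 8.49 against 374 CPM).

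The other lectin-like receptors were carried as well. Klrd1 (CD94), the partner of the NKG2 chains, stood at 338 CPM in KO and 293 CPM in WT, with Klrc2 (NKG2C) at 205 and 171 CPM and Klrc1 (NKG2A) at 99.7 and 96.5 CPM. Klrk1, the activating receptor NKG2D, stood at 316 and 375 CPM, in 200 and 90 cells. Klrb1c, which encodes NK1.1, stood at 286 and 246 CPM, in 233 and 94 cells, and Ncr1 (NKp46) at 78.1 and 61.8 CPM, in 97 and 32 cells. At least 2 UMIs over Klrb1c and Ncr1, the gate used here for NK cells, were met by 195 KO cells (61.7%) and 83 WT cells (57.6%). Of the 28 listed receptor genes, 10 reached the minimum level, 50 UMIs in KO and WT together with 50 CPM in at least 1 of them.

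Set against NK cells and ILC1 of the same library, the selected cells had more of 3 Ly49 genes and less of 3 genes of the Klrb1 family, besides the receptor genes that chose them. A gene was counted where it passed a rule of size in both libraries in the same direction, which asks for at least a 2-fold difference and an interval of the ratio that leaves out 1. Of 3103 genes measured in both libraries, 38 (1.22%) were higher and 49 (1.58%) were lower in the selected cells. Cd3d, Cd3e, Cd3g, Trac, Trdc and Trbc2 are among the higher genes and Ncr1 is among the lower ones, where the choice of cells put them. Without the gate genes Klrb1c and Ncr1, 13 NK receptor genes were measured, of which 4 were higher (Klra1, Klra6, Klra7 and Klre1) and 5 were lower (Klrb1a, Klrb1b, Klrb1f, Klri2 and Klrk1). The list had a median log2 ratio of 0.02 in KO and -0.14 in WT beside -0.18 and -0.13 for all genes.

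Klra7 was 11.6-fold higher than in NK cells and ILC1 in KO (interval 9.001 to 15.2) and 74.4-fold higher in WT (28.7 to 275), where it stood at 2.86 CPM in the NK cells. Klra1 was 14.03-fold and 52.1-fold higher, at 8.82 and 2.15 CPM in the NK cells. For Klra6, NK cells and ILC1 had 1 UMI in KO and none in WT. Klre1, whose protein pairs with the KLRI chains, was 3.36-fold higher in KO and 2.83-fold higher in WT. Klrb1b, an inhibitory receptor of the NKR-P1 family, stood at 12.2 CPM in KO and 8.49 CPM in WT, against 436 and 374 CPM in NK cells and ILC1. It was read in 14 KO and 4 WT cells, and 11 and 4 of these were in the incomplete class. Klrk1 was 2.48 times lower in KO and 2.37 times lower in WT, against 786 and 891 CPM in NK cells and ILC1.

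Of 14 measured TCR signalling genes, 4 were higher (Cd2, Fyn, Lat and Lck), with a median log2 ratio of 0.65 in KO and 0.84 in WT, and of 9 measured T lineage factors 1 was higher, with medians of 0.10 and 0.36; none of either list was lower. Of 3 measured basophil markers 2 were higher in both libraries, Prss34 at 449 CPM in KO and 329 CPM in WT, against 77.3 and 135 CPM in NK cells and ILC1, and Cpa3 at 98.8 and 71.0 CPM, against 20.6 and 12.2 CPM. In KO, 595 of 1063 Prss34 UMIs of the selected cells came from 1 cell. Ccl5 was 3.88-fold higher in KO and 3.46-fold higher in WT than in NK cells and ILC1, which had 2086 and 1849 CPM. Ly6c2, a surface protein of memory T cells, stood at 616 CPM in KO and 584 CPM in WT, against 84.4 and 107 CPM (7.30-fold and 5.47-fold). Nsg2, which encodes a neuronal vesicle protein, was 25.1-fold and 25.2-fold higher, at 59.1 and 54.0 CPM. Cd247, the zeta chain that signals for CD3 and for NK receptors, was 8.97-fold and 8.63-fold higher, and Bcl11b, a factor needed for T cell identity, 5.72-fold and 9.66-fold. S1pr1, which directs the exit of lymphocytes from tissues, was 5.11-fold and 6.57-fold higher. Cd74, the invariant chain of MHC class II, was 7.53 times lower in KO and 5.91 times lower in WT, against 576 and 556 CPM in NK cells and ILC1.

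**Figure D3:**
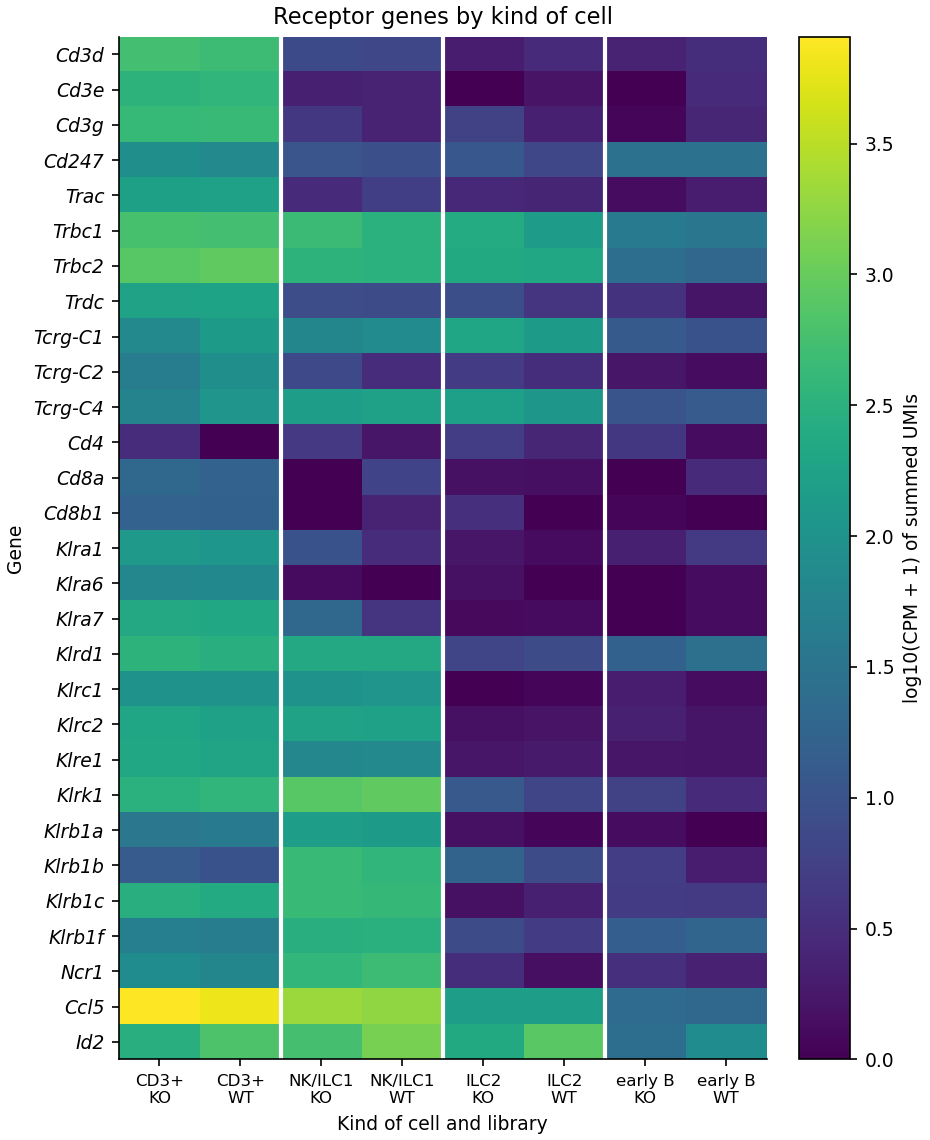
Levels of T cell receptor, co-receptor, NK receptor, Ccl5 and Id2 transcripts (rows) in the selected CD3-expressing lymphocytes and in 3 gated kinds of cell from the same sort (columns, KO left of WT), as log10 of CPM plus 1 of summed UMIs (colour). Cd3d, Cd3e, Cd3g, Trac, Trbc1, Trbc2 and Trdc chose the first 2 columns. Klra1, Klra6 and Klra7 are higher in those columns than in the other 6, while Trbc1, Trbc2 and Tcrg-C4 are read in NK cells, ILC1 and ILC2 as well.

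The gamma-delta and alpha-beta cells differed in few genes that the classes did not use. Of 2633 genes measured, 16 (0.608%) were higher and 4 (0.152%) lower in gamma-delta cells in both libraries. Trdc, Tcrg-C1, Tcrg-C2, Tcrg-C4 and Trac are among these because they define the classes. Klra1 and Klra6 were lower in gamma-delta cells of both libraries. Klra1 stood at 34.0 CPM in gamma-delta and 189.9 CPM in alpha-beta cells of KO (5.58 times lower), and at 51.0 and 164 CPM in WT (3.22 times lower). Klra6 stood at 30.3 and 91.4 CPM in KO (3.02 times lower), and at 25.5 and 109 CPM in WT (4.26 times lower). Klra7 passed the rule in KO, at 102 CPM in gamma-delta and 342 CPM in alpha-beta cells, and not in WT, at 164 and 315 CPM. A Klra UMI remained after thinning in 27.8% of gamma-delta and 54.2% of alpha-beta cells in KO, and in 33.3% and 47.9% in WT, where the intervals overlap (17.3 to 52.8% and 36.1 to 59.96%). S100a4, a calcium-binding protein of effector and memory lymphocytes, stood at 30.3 and 122 CPM in KO and at 128 and 489 CPM in WT.

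The other 12 genes higher in gamma-delta cells were the histone genes Hist1h1b, Hist1h2ae, Hist1h2ap and Hist1h4d, with Mki67, Top2a, Uhrf1, Plac8, Arpp21, Cux1, Dpp4 and Cpa3, and several rest on few cells. Mki67 stood at 214 CPM in gamma-delta and 63.9 CPM in alpha-beta cells of KO, and at 269.8 and 124 CPM in WT, read in 8 and 24 KO cells and in 6 and 11 WT cells. The topoisomerase gene Top2a stood at 248 and 87.0 CPM in KO, and at 397 and 154 CPM in WT. Plac8 stood at 772 and 179 CPM in KO and at 394 and 140.3 CPM in WT, and early B cells had 1742 CPM in KO and 1728 CPM in WT. Arpp21 was read in 9 KO and 3 WT gamma-delta cells, at 182 and 113 CPM, against 30.2 and 45.3 CPM in alpha-beta cells, and early B cells had 298 and 266 CPM. Dpp4 (CD26), a surface peptidase, stood at 75.6 and 33.7 CPM in KO and at 124 and 40.7 CPM in WT, in 25 and 29 KO cells and in 13 and 18 WT cells. Cpa3, a mast cell and basophil protease, was read in 7 KO and 6 WT gamma-delta cells, at 238 and 241 CPM, against 5.33 and 16.6 CPM in alpha-beta cells. Cpa3 is 1 of 4 basophil markers, and the part of basophil RNA in the other differences was not tested.

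The selected cells made up a larger share of the KO library. They were 316 of 4343 kept barcodes in KO (7.28%, 6.52 to 8.09%) and 144 of 3290 in WT (4.38%, 3.70 to 5.13%), a ratio of 1.66 (1.36 to 2.04). The sort gates and the limit on genes can set this share: with at least 500 genes per barcode in place of 1000 the ratio was 4.25. At that limit 319 KO cells (7.11%) and 176 WT cells (1.67%) were selected. The WT share fell although more WT cells were selected, because the kept WT barcodes increased by more. When selected cells with UMIs of other lineages were dropped and all kept barcodes stayed in the denominator, 166 KO cells (3.82%) and 28 WT cells (0.851%) remained, a ratio of 4.49. With 1 library per genotype, a difference of genotype cannot be told apart from one between the 2 sorts.

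Between KO and WT cells, 18 of 3120 measured genes (0.577%) were higher in KO and 37 (1.19%) were lower by the rule of size. The median log2 ratio of all measured genes was -0.08, and with trimmed-mean scaling it was 0.03, at which 26 genes were higher and 25 lower, so that the balance of both directions depends on the scaling. Without selected cells with UMIs of other lineages 51 genes were higher and 32 lower. Without the 8% highest Scrublet doublet scores 75 genes were lower, and with 1 CD3 and 1 TCR UMI as the minimum 10 were higher. Among receptor genes 1 passed the rule. Of the 11 CD3 and TCR constant genes, none was past the rule upwards and 1 downwards, with a median log2 ratio of -0.06. That gene, Tcrg-C2, stood at 42.2 CPM in KO and 88.8 CPM in WT, and the other gamma constant genes were close to the same ratio, with Tcrg-C1 at 68.8 and 132 CPM and Tcrg-C4 at 55.7 and 109.6 CPM. Trdc was level, at 176 CPM in KO and 183 CPM in WT. Of the 10 measured NK receptor genes, none passed the rule, 8 had a positive log2 ratio and the median was 0.15. The median turned to -0.018 in cells with 2 NK receptor UMIs, -0.085 in cells with 10 Ccl5 UMIs and -0.36 in the gamma-delta class.

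Id2 was lower in KO cells of all 3 classes. The difference was past the 2-fold rule of size in the gamma-delta and incomplete classes and short of it in the alpha-beta class. Its protein blocks E protein transcription factors and is needed by NK cells and innate lymphoid cells, and in T cells it takes part in effector and memory differentiation. It stood at 289 CPM in KO and 658 CPM in WT, 2.27 times lower in KO (2.05 to 2.52), and was read in 228 of 316 KO cells and 117 of 144 WT cells. The cell with most Id2 UMIs held 14 of 685 in KO and 53 of 852 in WT. By class Id2 stood at 255 CPM in KO and 718 CPM in WT gamma-delta cells, at 275 and 506 CPM in alpha-beta cells, and at 337 and 893 CPM in incomplete cells. The WT cell with 53 Id2 UMIs was incomplete, as was 1 with 45 Id2 and 18 ILC2 marker UMIs. In the WT gamma-delta class 1 cell held 43 Id2 UMIs, with 58 ILC2 marker UMIs and 0 NK receptor UMIs. The part of such barcodes in the class values was not tested. Among cells with at least 10 Ccl5 UMIs Id2 stood at 304 and 543 CPM, a log2 ratio of -0.83 that did not pass the rule. It passed under 11 of 17 alternatives. The others, besides those cells and the alpha-beta class (-0.87), were cells with 2 NK receptor UMIs (-0.91), the mean over cells (-0.94), barcodes thinned to 2000 UMIs before the choice (-0.92) and the 166 KO and 28 WT cells without UMIs of other lineages (-0.75). After thinning, an Id2 UMI was seen in 33.5% of KO cells (28.4 to 39.0%) and 52.1% of WT cells (43.6 to 60.5%), against 3.45% and 6.57% of early B cells. The NK cells and ILC1 of the sort had 577 CPM in KO and 1274 CPM in WT, and a difference between both kinds of cell in the KO over WT ratio was not tested.

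Immediate early genes, which cells switch on within minutes of stimulation or handling, leaned towards KO. All 21 measured members of the 24 listed had a positive log2 ratio, with a median of 0.69 beside -0.08 for all genes, and 6 passed the rule of size upwards and none downwards. Klf4, a transcription factor that restrains proliferation, stood at 149.9 CPM in KO and 60.2 CPM in WT (2.49-fold, 1.94 to 3.22), in 140 and 39 cells. Zfp36, which destabilises cytokine messages, stood at 213 and 100.3 CPM (2.12-fold, 1.75 to 2.59), in 202 and 66 cells. Tnfaip3, a brake on NF-kappa-B signalling, stood at 115 and 50.9 CPM, Rgs2, a brake on G protein signalling, at 135 and 62.5 CPM, and the phosphatase gene Dusp2 at 240.3 and 116 CPM. Egr1, a factor induced by receptor signals, stood at 242 and 119 CPM. Klf4 was higher in KO in all 3 classes, at 191 CPM in KO and 36.5 CPM in WT gamma-delta cells, 148 and 49.8 CPM in alpha-beta cells, and 122 and 97.6 CPM in incomplete cells, where the intervals overlap. The same genes leaned the same way in NK cells and ILC1, with Klf4 at 126 CPM in KO and 73.7 CPM in WT and Zfp36 at 223 and 116 CPM, and in early B cells, with Zfp36 at 274 and 113 CPM.

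**Figure D4:**
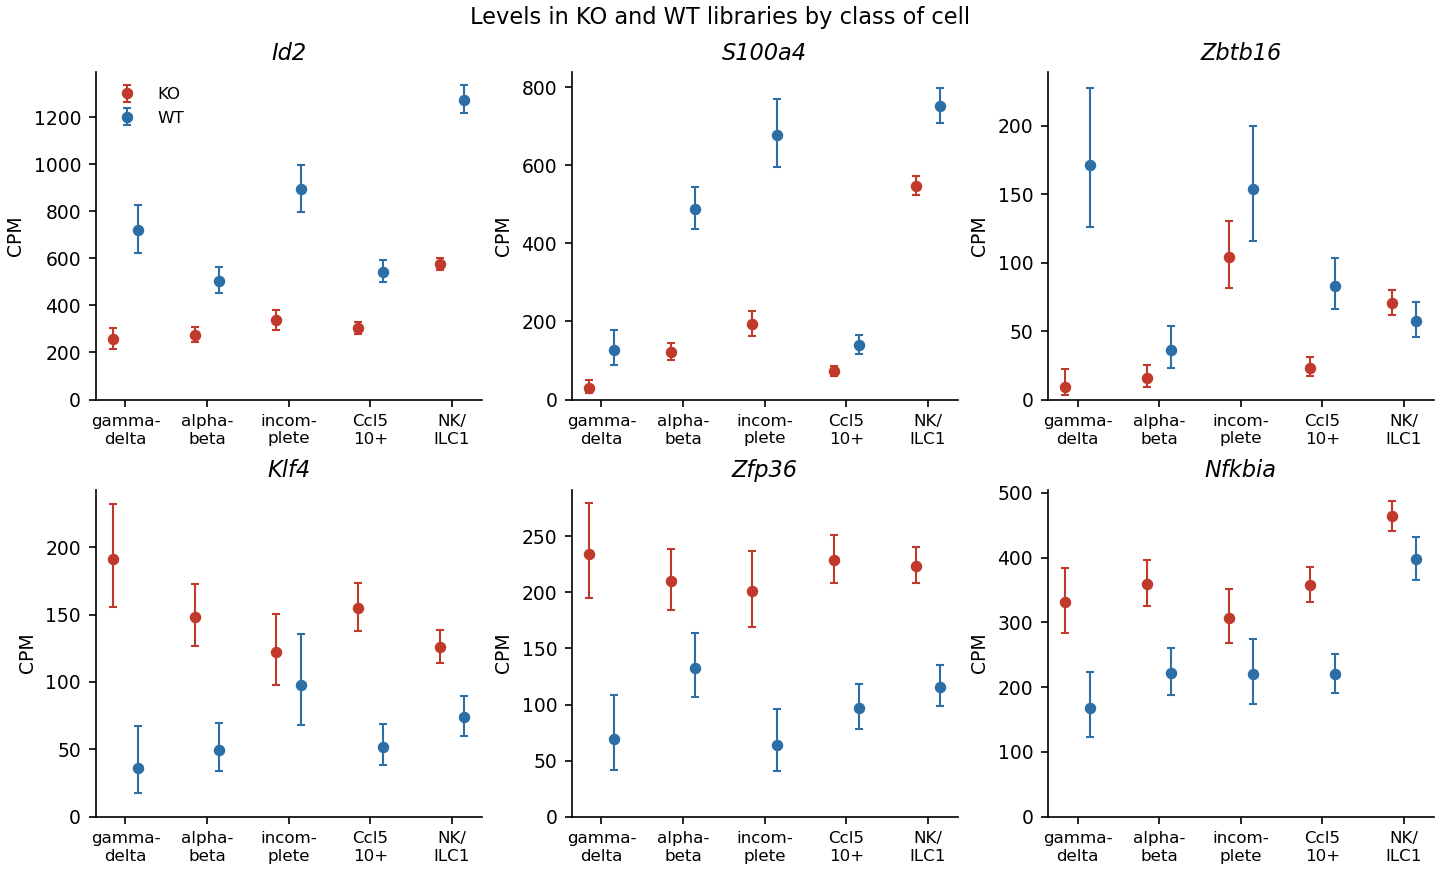
Levels in CPM of 6 genes in KO (red) and WT (blue) cells of the gamma-delta, alpha-beta and incomplete classes, in cells with at least 10 Ccl5 UMIs, and in NK cells and ILC1 without CD3; bars are exact 95% Poisson intervals of summed UMIs and each vertical axis starts at 0. Id2 and S100a4 are lower in KO in all 5 sets of cells (Id2 at 275 against 506 CPM in the alpha-beta class), while Klf4, Zfp36 and Nfkbia are higher in KO; Zbtb16 in the WT gamma-delta class rests mostly on 1 cell.

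The list of effector genes leaned the same way with a smaller median. All 10 measured members of the list of 18 cytotoxic and chemokine genes had a positive log2 ratio, with a median of 0.35, and 1 passed the rule. This was Ifng, the gene of interferon gamma, at 56.6 CPM in KO and 21.6 CPM in WT (2.62-fold, 1.73 to 4.09), in 75 and 19 cells. Ccl5 was 1.26-fold higher in KO (1.23 to 1.30). Below the minimum, Gzma stood at 34.2 and 4.63 CPM, in 23 and 2 cells, and Ccl4 at 29.6 and 3.86 CPM, in 30 and 3 cells. Gzmb (23.7 and 16.2 CPM) and Prf1 (27.0 and 22.4 CPM), which encode granzyme B and perforin, were low in both libraries, and Gzmk had no UMI. Cd28, the co-stimulatory receptor, was 2.12-fold higher in KO (1.61 to 2.83) at 106 and 50.2 CPM, and it was the member of 14 measured TCR signalling genes that passed the rule.

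Genes lower in KO included homing receptors and genes of tissue-resident and innate-like lymphocytes. Cxcr6, a chemokine receptor of resident lymphocytes, stood at 20.7 CPM in KO and 111 CPM in WT, 5.37 times lower (3.86 to 7.59), and was read in 28 and 45 cells. It was low in gamma-delta cells of both libraries (20.8 and 14.6 CPM), and the difference lay in alpha-beta cells (20.4 and 137 CPM) and incomplete cells (21.1 and 137 CPM). Among cells with at least 10 Ccl5 UMIs, 278 in KO and 107 in WT, Cxcr6 stood at 13.1 and 35.3 CPM, under the minimum. S100a4 stood at 122 CPM in KO and 465 CPM in WT, 3.79 times lower (3.29 to 4.38), in 84 and 66 cells. Among cells with at least 10 Ccl5 UMIs it stood at 71.9 and 139 CPM, a ratio that did not pass the rule. Itgb7, an integrin chain for homing to the gut, stood at 103 and 219 CPM, in 140 and 100 cells, and Ccr2, a chemokine receptor, at 52.4 and 121 CPM, in 56 and 49 cells. Of 14 measured innate-like and memory genes, none was past the rule upwards and 4 downwards (Id2, Cxcr6, Ly6a and Zbtb16), with a median log2 ratio of -0.32. Zbtb16, the PLZF factor of innate-like T cells, stood at 41.0 and 97.3 CPM, in 26 and 27 cells, and 1 WT cell held 42 of its 126 UMIs. Eomes and Tbx21, factors of NK and memory T cells, were under the minimum, Eomes at 37.6 CPM in KO and 37.8 CPM in WT and Tbx21 at 45.6 and 32.4 CPM.

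Other genes lower in KO are known from cell types other than T cells. Lgals3, a galectin of myeloid cells, stood at 16.5 CPM in KO and 78.7 CPM in WT (4.78 times lower), and Irf8, a factor of dendritic and B cells, at 54.5 and 198 CPM, where 1 WT cell held 86 of 256 UMIs. Cox6a2, a gene of plasmacytoid dendritic cells, stood at 27.9 and 109.6 CPM, and Ly6d, of lymphoid progenitors and plasmacytoid dendritic cells, at 94.2 and 263 CPM. Il2ra, a receptor chain of ILC2 and regulatory T cells, stood at 16.05 and 50.2 CPM. Actn2 (11.8 and 52.5 CPM), Ltb4r1 (17.3 and 67.9 CPM), Capg (31.3 and 94.9 CPM), Tmem176a (54.9 and 149.8 CPM) and Tmem176b (68.0 and 184 CPM) completed the 12 lowest. Among cells with at least 10 Ccl5 UMIs, 3 of these 12 were still past the rule of size (Ly6d, Irf8 and Cox6a2). There Capg stood at 21.6 CPM in KO and 21.8 CPM in WT, Tmem176a at 34.7 and 39.5 CPM, Tmem176b at 49.3 and 66.5 CPM and Lgals3 at 10.1 and 16.6 CPM.

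Barcodes with markers of another cell type were more frequent among the WT cells. The shares that follow are without thinning, and the WT cells were deeper (a median of 7579 UMIs against 5846 in KO), which raises such shares. At least 2 UMIs over 7 ILC2 markers were found in 60 KO cells (19.0%) and 61 WT cells (42.4%), over 4 basophil markers in 53 (16.8%) and 62 (43.1%), over 4 plasma cell markers in 32 (10.1%) and 46 (31.9%), and over 4 plasmacytoid dendritic cell markers in 27 (8.54%) and 27 (18.8%). B cell markers were alike, at 20 (6.33%) and 11 (7.64%). The ILC2 markers include Gata3, which is also listed here among the T lineage factors, so a cell can be counted there for a T cell gene. The summed level of the ILC2 markers was 254 CPM in KO and 491 CPM in WT, that of the plasma cell markers 73.1 and 215 CPM, and that of the plasmacytoid dendritic cell markers 164 and 430 CPM, while basophil markers summed to 995 and 604 CPM. Of the 2 plasma cell markers that were measured, 1 was past the rule of size downwards and 1 had a positive log2 ratio. Neutrophil markers reached 2 UMIs in 6 KO cells (1.90%) and 13 WT cells (9.03%), lymphoid progenitor markers in 35 (11.1%) and 37 (25.7%), and group 3 innate lymphoid cell markers in 7 (2.22%) and 15 (10.4%). The 6 neutrophil markers summed to 84.5 CPM in KO and 54.0 CPM in WT, with 2 of them, Ngp and Camp, at 0 in both. Leaving out cells with at least 2 UMIs summed over the markers of B cells, plasmacytoid dendritic cells, basophils, neutrophils and ILC2 kept 166 KO and 28 WT cells. Gata3 UMIs counted towards this limit too. Among these, the log2 ratio of Klf4 was 1.48 and that of Zfp36 1.49, both still past the rule of size, while S100a4 at -0.40 was no longer past it. Cxcr6 kept its size, at -2.33 beside -2.18 in all selected cells (13.7 CPM in KO and 89.1 CPM in WT). It had too few UMIs in these cells to be measured, so it was not called. Ly6d and Il2ra turned over, each to 1.54, at 9.50 CPM in KO and 0 in WT. Both are among the markers used to leave cells out, so these values describe that choice. The part of mixed barcodes in the remaining differences was not tested.

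Several of the genes highest in KO rest on a few cells. Ifitm1 had 153 UMIs in 16 KO cells, 71 of them in 1 cell, against 6 UMIs in 6 WT cells (64.6 and 4.63 CPM). Ctsg, a neutrophil protease, had 224 UMIs in 6 KO cells, 123 of them in 1, and 30 UMIs in 22 WT cells. Mcpt8, a basophil protease, had 1028 UMIs in 78 KO cells, 713 of them in 1, and without the leading cell of each library its log2 ratio was -0.27. Ube2c, a cell division gene, was read in 18 KO and 11 WT cells (71.4 and 17.0 CPM) and Cenpa, a centromere protein, in 51 and 18 (62.5 and 16.2 CPM). At least 5 UMIs over Mki67 and Top2a were found in 13 KO cells (4.11%) and 8 WT cells (5.56%). Mirt1, a noncoding RNA, stood at 140.2 and 58.7 CPM in 160 and 50 cells, and Rhob, a small GTPase, at 93.8 and 40.1 CPM in 134 and 38 cells, so that these rest on many cells.

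Other lists showed few calls. None of the 9 measured T lineage factors, 7 naive T cell genes, 8 MHC class I genes and 6 measured receptor adaptors passed the rule, with median log2 ratios of -0.09, -0.02, -0.03 and 0.14. Tcf7, the factor TCF-1, stood at 199 CPM in KO and 268 CPM in WT, Lef1 at 98.4 and 82.6 CPM, Bcl11b at 175 and 187 CPM and Gata3 at 135 and 216 CPM. Il7r, whose protein was used for the sort, stood at 996 and 1052 CPM, and Il2rb, the receptor chain for interleukin-15, at 493 and 411 CPM. Among 10 measured homing genes 2 were lower and none higher, among 8 interleukin receptor genes 1 was lower (Il2ra), and of 5 measured interferon response genes 1 was lower.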

How the data were processed

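The data were 2 single-cell libraries of mouse bone marrow, 1 per genotype, whose deposited matrices give unnormalised UMI counts for each gene in each barcode, made by the authors with Cell Ranger 3.1.0 per the file headers. The submitters' processing notes name the build mm10 and Seurat; the role of Seurat and the annotation release were not given in the sources used here. Counts of genes with near-identical copies are uncertain.

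Cells, lists and comparisons were chosen with earlier results of these data known. Cells were gated on raw UMIs: NK cells and ILC1 as given in the report, ILC2 with an Il1rl1 UMI and at least 4 UMIs over Il1rl1, Il2ra, Hs3st1 and Gata3, early B cells with at least 4 UMIs over Cd79a, Cd79b, Ebf1 and Vpreb3, all outside the selected cells. Barcodes that met the gate for NK cells and ILC1 were left out of ILC2. UMIs were summed per library and kind of cell and given as CPM, with exact Poisson intervals. Log2 ratios were taken on CPM + 5, which understates low genes, folds on CPM, and their intervals were exact binomial ones, conditional on the summed UMIs. A gene was measured with at least 50 UMIs over both sums and 50 CPM in the higher one. Shares have Clopper-Pearson intervals, and a count of 0 allows 3 cells of the total. For shares compared between kinds of cell, each cell was thinned to 1500 UMIs, which left out no cell.

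Doublets were kept in the main values, and Scrublet scores (scanpy 1.11.5) entered as an alternative. Factors for trimmed-mean scaling came from edgeR 4.0.16, and the calling steps were tested on simulated counts. The genes named were the up to 12 furthest in each direction between KO and WT and the up to 10 against NK cells and ILC1. Mitochondrial, ribosomal protein, haemoglobin, immunoglobulin, TCR segment, Y-linked and unnamed genes were left out of these, as were Xist and Tsix. Id2, the receptor lists and up to 6 genes of each other list were named as well. Other genes named in the text were chosen after their values were seen. Positions are from GENCODE M21 (GRCm38), which matched 30934 of 31053 gene IDs, and promoters from RefSeq (GRCm38.p6).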

Additional observations from a re-analysis of the deposited data

Results flagged for a closer look

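Ifitm1, an interferon-induced membrane protein, was the 1 gene past the rule of size in opposite directions in different kinds of cell. Its log2 KO over WT ratio was 2.85 in the CD3-expressing lymphocytes and -2.73 in NK cells and ILC1. Set against NK cells and ILC1, the lymphocytes had a log2 ratio of 2.80 in KO and -2.79 in WT. The difference between the ratios was not tested, since each genotype had 1 library. In KO, 71 of 153 UMIs of the lymphocytes came from 1 cell, and in WT 57 of 86 UMIs of the NK cells and ILC1 came from 1 cell.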

How the results depend on the processing

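No paired analysis was possible because each genotype had 1 library and the labels share no replicate beyond that 1. Main values were a share ratio of 1.66, 18 genes higher and 37 lower in KO, a difference of 15.1 percentage points in cells with NK receptor UMIs, and NK receptor list medians of 0.15 between KO and WT and of 0.02 (KO) and -0.14 (WT) against NK cells and ILC1; the values that moved follow in this order, with the list medians against NK cells last. With at least 500 genes the share ratio was 4.25, from 319 KO cells (7.11%) and 176 WT cells (1.67%). With at most 5% mitochondrial UMIs the list medians were 0.26, -0.11 and -0.66. With at least 1 CD3 and 1 TCR UMI there were 10 genes higher, a difference of 18.8 points, and medians of -0.58 and -0.77 against NK cells. With at least 3 of each the medians were 0.066, 0.10 and 0.073, the last turned over. Barcodes thinned to 2000 UMIs before the rule gave 34 genes higher, 16.4 points, and medians of 0.36 and 0.36 against NK cells, the WT value turned over. Without the 8% highest Scrublet scores there were 75 genes lower, 13.8 points, and medians of 0.29 and, in WT against NK cells, -0.26. Without selected cells with UMIs of other lineages (166 KO and 28 WT cells left) the share ratio was 4.49, 51 genes were higher, the difference was 4.56 points, and the medians against NK cells were 0.44 and -0.75. A mean of CPM over cells gave -0.12 and -0.37 there, trimmed-mean scaling 0.25, 0.18 and -0.0084, median-of-ratios scaling 0.25, 0.17 and -0.030, and cells thinned to 1500 UMIs -0.51 and -0.79 against NK cells. With at least 10 UMIs and no CPM minimum, 149 genes were higher and 316 lower among 10606, and the KO median against NK cells was 0.11. The difference in share was 12.5 points without thinning and 16.6 points for at least 1 UMI. Alternatives added after seeing the data gave KO over WT list medians of -0.018 in cells with 2 NK receptor UMIs, -0.085 in cells with 10 Ccl5 UMIs and -0.36 in the gamma-delta class, 70 genes lower in the alpha-beta class and 48 higher in the gamma-delta class. The cause of these shifts was not tested.

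Of 425 log2 ratios of the 25 named genes over 17 settings, 284 stayed within the limit set for a like value, 118 moved and 23 turned over, in 9 genes. Mcpt8 turned to -0.44 with at least 1 CD3 and 1 TCR UMI, -1.08 with barcodes thinned before the rule, -0.33 without high Scrublet scores, -1.06 as a mean over cells, -1.24 with cells thinned, -0.42 in cells with 10 Ccl5 UMIs, -1.46 in the alpha-beta class and -0.27 without its leading cell. Ctsg turned to -1.53 with barcodes thinned before the rule, -1.18 without cells with UMIs of other lineages, -0.21 as a mean over cells and -2.23 in the alpha-beta class. Ube2c turned to -0.070, Ifitm1 to -0.12 with at least 1 CD3 and 1 TCR UMI, and without cells with UMIs of other lineages they turned to -0.65 and -0.38, Cenpa to -0.019, and Il2ra and Ly6d to 1.54 each. Il2ra and Ly6d are among the markers that left those cells out, so their values describe that choice. With cells thinned, Ube2c was -0.33. In the gamma-delta class Ly6d was 1.24, Tmem176a 0.79 and Cxcr6 0.40. Id2 ranged over its alternatives from -1.47 to -0.75, S100a4 from -2.70 to -0.40, Klf4 from 1.10 to 2.24, Zfp36 from 0.64 to 1.69 and Tnfaip3 from 0.55 to 2.14. Genes under 50 CPM in both libraries were not called at this depth.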
